A study of Homo sapiens with 8 samples.

Results

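Broad H3K27ac domains shared by all libraries were examined in pancreatic progenitors (PPs) cultured with or without a BET inhibitor. Overlapping peaks (1 bp or more) from the peak lists of 4 H3K27ac libraries were joined, and a joined region was kept when every library had a peak in it and its merged width was at least 2000 bp. This gave 361 domains among 15752 merged regions, 10317 of which all 4 libraries shared. The domains were thus chosen by merged width and by presence in every library, and through the width by the covered length of their widest library, so these measures are described without a test of the choice itself. The PPs came from 1 established line of human embryonic stem cells, MEL1, which per the study's methods carries GFP in its insulin gene. All cells were grown in EF6 medium, which contained B27, EGF, bFGF and 616452, a TGFβ inhibitor. The DMSO group received the solvent and the I-BET151 group received 1 μM I-BET151, each for 7 days with 2 H3K27ac libraries per group. Each H3K27ac library had an input partner, which entered only through the authors' peak calls and the values in their lists.

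H3K27ac is an acetyl group on a lysine in the tail of histone H3, and it is found at promoters and enhancers in use. BET proteins bind acetylated lysines through their bromodomains and help to recruit the elongation machinery, and I-BET151 occupies those bromodomains. Wide stretches of H3K27ac are known to lie at genes that define a cell type as well as at some highly transcribed genes of general function. The labelled cell type was checked against markers by the peaks within 3 kb of each gene. All 10 progenitor markers (among them PDX1, NKX6-1, SOX9 and FOXA2) had a peak in every library, and their summed covered length was 32117 and 31125 bp in DMSO against 36304 and 34233 bp in I-BET151. None of 4 endocrine precursor markers (NEUROG3, NEUROD1, NKX2-2 and INSM1) had a peak in any library. Of 4 pluripotency markers only LIN28A had one, covering 785 to 1316 bp, and POU5F1, NANOG and SOX2 were at 0. Of 4 mesenchymal markers only PDGFRB had one, covering 589 to 1129 bp, and PDGFRA, COL1A1 and COL3A1 were at 0.

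A set of 5 domains is shown for how differently such domains are built, and the 200 bases centred on the strongest summit of each are printed below from hg38, plus strand, 5′ to 3′, with every CpG in capitals. The first is the widest domain (chr16:88498895-88499094, an intron of ZFPM1), the second the largest gain of covered length after I-BET151 (chr1:3326695-3326894, an intron of PRDM16) and the third the second largest loss (chr19:4058649-4058848, an intron of ZBTB7A). The last pair differs in CpG density, with ECPAS (chr9:111483709-111483908, an intron at the promoter) near the dense end, where 2 denser domains are not shown, and MGAT3 (chr22:39470976-39471175, intronic) at the sparse end.
ZFPM1: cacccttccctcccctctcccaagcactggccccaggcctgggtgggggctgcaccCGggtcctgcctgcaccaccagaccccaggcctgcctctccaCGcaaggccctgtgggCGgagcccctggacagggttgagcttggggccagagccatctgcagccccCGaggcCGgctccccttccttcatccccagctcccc
PRDM16: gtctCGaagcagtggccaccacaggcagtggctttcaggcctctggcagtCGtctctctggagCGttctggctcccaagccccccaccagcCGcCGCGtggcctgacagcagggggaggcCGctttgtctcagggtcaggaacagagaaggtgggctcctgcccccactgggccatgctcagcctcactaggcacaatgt
ZBTB7A: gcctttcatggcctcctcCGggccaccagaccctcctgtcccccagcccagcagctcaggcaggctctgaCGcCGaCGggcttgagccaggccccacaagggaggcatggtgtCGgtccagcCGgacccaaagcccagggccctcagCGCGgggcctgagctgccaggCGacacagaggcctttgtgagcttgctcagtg
ECPAS: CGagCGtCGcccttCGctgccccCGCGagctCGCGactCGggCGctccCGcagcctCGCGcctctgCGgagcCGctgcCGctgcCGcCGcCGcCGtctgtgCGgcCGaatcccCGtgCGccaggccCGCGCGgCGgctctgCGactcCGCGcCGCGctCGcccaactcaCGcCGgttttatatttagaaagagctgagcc
MGAT3: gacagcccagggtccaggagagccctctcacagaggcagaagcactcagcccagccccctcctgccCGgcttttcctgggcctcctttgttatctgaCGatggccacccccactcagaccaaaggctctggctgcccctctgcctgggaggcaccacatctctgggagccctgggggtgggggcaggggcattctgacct
The printed windows held 5 CpGs at ZFPM1, 7 at PRDM16, 9 at ZBTB7A, 36 at ECPAS and 2 at MGAT3, although their GC contents were between 65 and 74.5%. Within 500 bp around the summit the ratio of observed to expected CpG was 0.261, 0.271, 0.323, 1.17 and 0.170 in the same order. The 3 domains with the widest extent or the large changes of covered length were thus GC-rich but CpG-poor, unlike most domains described below.

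The peak lists carried 12312 to 14248 peaks per library. Depth after duplicate removal was estimated from their fold and p values. The lowest local input level, the peak caller's default genome size and the shortest peak, taken as fragment length, gave 2.67 to 3.04 M input reads per library. The scaling of ChIP to input reads then gave 7.76 to 9.84 M ChIP reads, with DMSO replicate 2 the deepest. Depth of DMSO replicate 1 lay between the depths of the I-BET151 libraries. With 1 read kept per position and strand, a summit could reach at most 68.3 RPM (ChIP reads at the summit per M ChIP reads of the library) in DMSO replicate 1, 50.2 in DMSO replicate 2, 65.5 in I-BET151 replicate 1 and 62.0 in I-BET151 replicate 2. The labels do not say whether replicates came from separate cultures, so the p values below measure the spread between these libraries, and that spread may be technical. With 2 libraries per group the smallest two-sided p of an exact permutation test is 0.33. Because these were bulk samples, a lower mark in every cell and fewer cells that carry it cannot be told apart.

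Domains ranged from 2001 to 7165 bp in merged width, with a median of 2330 bp and quartiles of 2131 and 2726 bp. The other 9956 shared regions had a median width of 755 bp. Most domains were close to the lower limit: 226 were under 2500 bp, 75 were between 2500 and 3000 bp, 50 were between 3000 and 4000 bp and 10 were wider. Just inside the limit lay the domains at STXBP5 (2001 bp), ATP2B1 (2001 bp) and CAPZB (2002 bp). Just outside lay regions at ING1 (1999 bp), RXRA (1998 bp) and PPP1R16A (1998 bp), which covered 1892 to 1995, 1609 to 1998 and 1795 to 1998 bp in single libraries. The values on both sides of the limit ran into each other, so the limit separates no natural class. A domain was mostly 1 peak: in DMSO 289 and 262 of the 361 domains held a single peak, and in I-BET151 287 and 253. The mean number of peaks per domain was 1.21 and 1.30 in DMSO against 1.22 and 1.33 in I-BET151 (difference 0.018, exact permutation p = 0.67), with replicate 2 of each group above replicate 1.

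ZFPM1, which encodes FOG1, a cofactor of GATA factors, was the nearest gene of 5 domains, more than any other gene. The first lay over its promoter (2999 bp), and the other 4 lay between 34.2 and 58.2 kb into the gene. The widest, of 7165 bp (chr16:88493837-88501001), covered 6136 and 5762 bp in DMSO against 7165 and 6881 bp in I-BET151. Both I-BET151 libraries were above both DMSO libraries, in which the domain was 2 and 3 separate peaks, against 1 and 2 in I-BET151 (limma adjusted p = 0.116). Its neighbour of 5132 bp covered 5023 and 4794 bp in DMSO against 5131 and 4856 bp in I-BET151, and the groups overlapped. The last intronic domain covered 2425 and 2339 bp in DMSO against 3041 and 3038 bp in I-BET151, and the one closest to the promoter went the other way, with 2592 and 2425 bp in DMSO against 2197 and 2356 bp. Together the 5 domains covered 19.0 and 18.1 kb in DMSO against 20.5 and 20.1 kb in I-BET151.

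**Figure D1:**
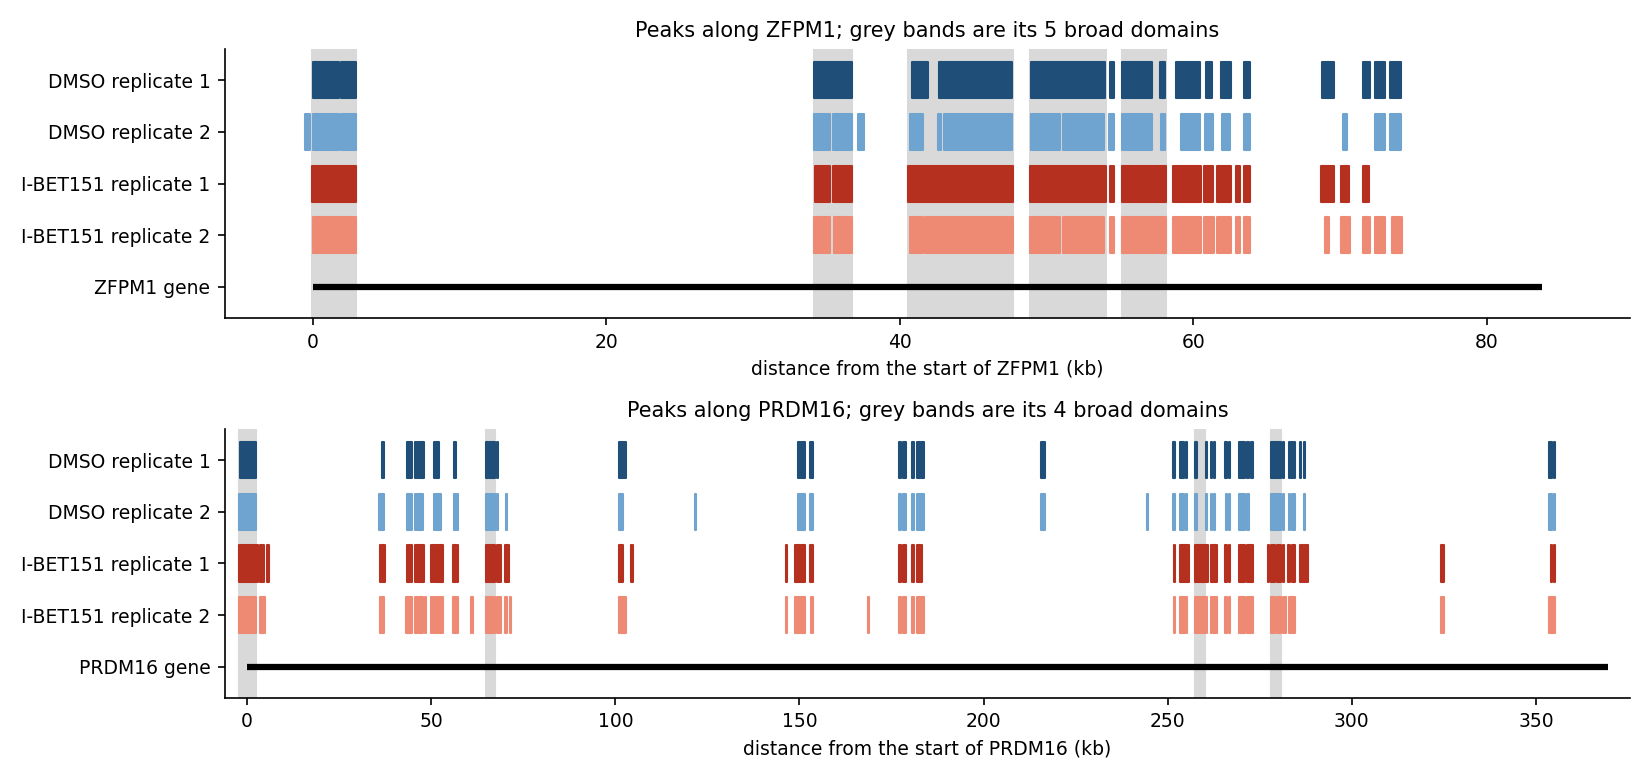
Peaks called in each library along ZFPM1 (top) and PRDM16 (bottom), as distance from the gene's first annotated position in kb, with coloured bars for peaks, grey bands for the broad domains and a black line for the gene. At PRDM16 the band from 257 to 260 kb is nearly filled in both I-BET151 libraries and holds only short peaks in both DMSO libraries, and the ZFPM1 promoter band is 1 unbroken peak in both I-BET151 libraries and holds a short gap in both DMSO libraries.

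The other very wide domains differed less between the groups. The domain of TNRC18 (6338 bp, with its summit 1200 bp from the start) covered 6163 and 5971 bp in DMSO against 6338 and 6152 bp in I-BET151. An intronic domain of ARID3A, a transcription factor with an AT-rich interaction domain, covered 5006 and 4981 bp in DMSO against 5028 and 4985 bp in I-BET151. The promoter domain of PRDM16, a zinc finger transcription factor, covered 4332 and 4565 bp in DMSO against 4682 and 4632 bp in I-BET151. Of these 3 only PRDM16 had groups that did not overlap. The domain nearest to VWA1, which encodes a matrix protein, had its summit 2445 bp from that start, in LINC01770, and no protein-coding start inside. It covered 4301 and 4389 bp in DMSO against 4377 and 4384 bp in I-BET151. CCND1, which encodes cyclin D1, had 4031 and 4234 bp in DMSO against 4116 and 4216 bp in I-BET151. In both, the I-BET151 libraries lay between the DMSO libraries. ZNF703, which encodes a zinc finger repressor, had 3894 and 3867 bp in DMSO against 4289 and 3916 bp in I-BET151, so that its groups were apart by less than the gap between the I-BET151 libraries. KDM4B, which encodes a histone demethylase, held the next widest domain far from any protein-coding start, with 3963 and 3739 bp in DMSO against 3813 and 3779 bp in I-BET151, and its groups overlapped.

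The comparison of I-BET151 with DMSO asked how far these domains were held or altered when BET bromodomains were blocked. Summed over the 361 domains, peaks covered 851 and 841 kb in DMSO against 832 and 804 kb in I-BET151. Both I-BET151 libraries were below both DMSO libraries, by 27.9 kb in the mean (846 ± 6.77 against 818 ± 19.8 kb, SD, n = 2 each, exact permutation p = 0.33). Over the same domains the share of the merged width that was covered was 92.7 and 91.7% in DMSO against 90.7 and 87.6% in I-BET151. The other shared regions were also less covered in I-BET151, with 7748 and 7594 kb in DMSO against 7515 and 7206 kb in I-BET151. Relative to them the broad domains did not shift beyond the spread between replicates: their covered length was 10.98 and 11.08% of that of the other shared regions in DMSO against 11.08 and 11.16% in I-BET151 (exact permutation p = 0.67). As a share of everything a list covered, broad domains held 8.59 and 8.53% in DMSO against 9.05 and 9.33% in I-BET151, and both I-BET151 libraries were above both DMSO libraries (exact permutation p = 0.33). That difference of 0.636 percentage points was 0.159 when every list was shortened to its 12312 top-ranked peaks.

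Behind these sums, single domains moved in both directions. In 102 domains (28.3%) both I-BET151 libraries covered more than both DMSO libraries, against 16.0% of all shared regions. In 111 domains (30.7%) both covered less, against 33.3% of all shared regions, and in 148 domains the groups overlapped. Because a domain qualifies through its widest library, regions that are wide in 1 group only can enter, and these shares carry that choice. The domains above added 33.0 kb in all and those below removed 58.6 kb. The losses were the larger single changes: 39 domains lost at least 500 bp in the mean and 20 gained as much, and 19 against 7 changed by at least 1000 bp. The median difference over all domains was −3 bp, while the median gap between replicates was 74 bp in DMSO against 86 bp in I-BET151. Summed over all domains, the span from the first to the last peak of a domain fell by 25.3 kb (868 ± 1.93 kb in DMSO, 843 ± 14.2 kb in I-BET151). The gaps inside rose by 2.56 kb, with overlapping groups. These net sums mix gains and losses, so they do not show where single domains lost length.

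**Figure D2:**
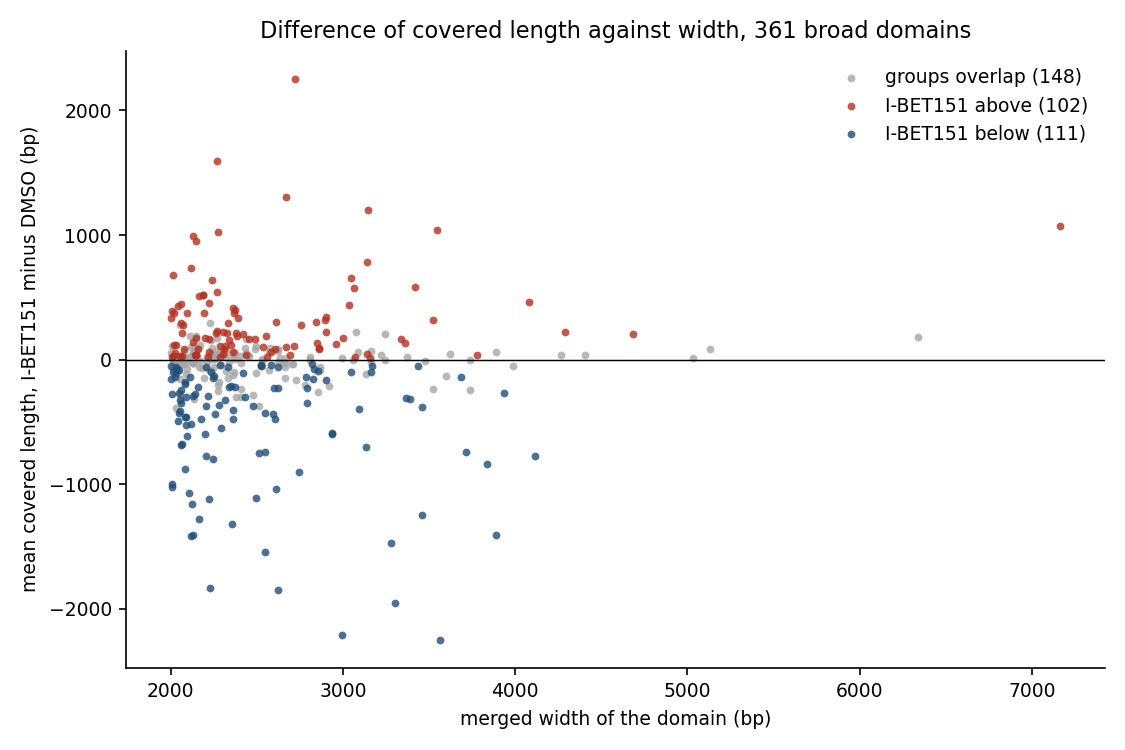
Each point is 1 of the 361 domains, with its merged width in bp on the horizontal axis and the mean covered length in I-BET151 minus that in DMSO in bp on the vertical axis. Red points are the 102 domains with both I-BET151 libraries above both DMSO libraries, blue points the 111 below and grey points the 148 whose groups overlapped, and differences beyond 1000 bp in either direction occur mostly at widths under 4000 bp.

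A fit across all 10317 shared regions (limma on log2 covered length, Benjamini-Hochberg adjustment) called 12 domains wider in I-BET151 (3.32%, against 0.572% of all shared regions) and 21 narrower (5.82%, against 1.57%). The median log2 difference was −0.0012 over the domains and −0.0369 over all shared regions. The choice by width enters these shares too, since regions wide in 1 group only could become members, so the calls on covered length are given as a description. With each library centred on its median, 13 were called wider and 10 narrower. The calls depended on the fit: of all 10317 regions limma called 221, it called 34 without trend, and it called 0 with the replicate number as a block (114 of the 361 domains at an unadjusted p under 0.05, against 101 without the block). Leaving out 1 library gave 0 to 3 domains called wider and 0 to 21 narrower, with 0 calls among all regions without DMSO replicate 1 or without DMSO replicate 2 (94 and 105 domains at an unadjusted p under 0.05), where the lone DMSO library is assumed to vary like the I-BET151 libraries.

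PRDM16 had the largest gain. A domain in one of its introns (chr1:3326566-3329288) covered 437 and 408 bp in DMSO against 2723 and 2631 bp in I-BET151. It was a short peak in both DMSO libraries and a full domain in both I-BET151 libraries (log2 difference 2.66), so that it met the width limit only through I-BET151. No p value is given for it or for the other gains and losses of this kind. Where limma calls or ranks of such domains are named, they are descriptions. PRDM16 held 4 domains in all, and the one that followed, 278 to 281 kb into the gene, was narrower, with 2919 and 2584 bp in DMSO against 2332 and 1989 bp in I-BET151. Next came MED12L, which encodes a relative of the Mediator subunit MED12, with 376 and 876 bp in DMSO against 2266 and 2176 bp in I-BET151. An intergenic domain on chromosome 7, whose nearest protein-coding start was that of the forkhead gene FOXL3 at a distance of 52218 bp, covered 1187 and 1311 bp in DMSO against 2640 and 2462 bp in I-BET151. SOX11, which encodes an HMG-box factor of embryonic progenitors, had 1674 and 1705 bp in DMSO against 3066 and 2707 bp in I-BET151 (log2 difference 0.77). In each of these 4 domains the groups were separated by more than the gap within either group. IGF1R, the receptor of insulin-like growth factor 1, had 1939 and 2411 bp in DMSO against 3167 and 3256 bp in I-BET151. TBX2, a T-box factor gene, had 1375 and 1125 bp in DMSO against 2276 and 2270 bp in I-BET151 at the domain 2865 bp from its start. DACH1, which encodes a transcriptional regulator related to Dachshund, had 1099 and 767 bp in DMSO against 2131 and 1721 bp in I-BET151. All 3 were apart between the groups. Beyond PRDM16, SOX11 and the domain near FOXL3, the domains that limma ranked first among the wider ones were at CCDC40, HIVEP2, MFHAS1, GLIS2 and the last ZFPM1 domain, with log2 differences of 0.95, 0.42, 0.39, 0.40 and 0.35. The remaining 4 called wider, named here after their values were seen, were at LAMB1, TSC22D1, ZNF48 and, 4395 bp from its start, the receptor gene NOTCH1.

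The largest loss was at GPT, which encodes an alanine aminotransferase, where covered length was 3400 and 3566 bp in DMSO against 1316 and 1150 bp in I-BET151. An intronic domain of ZBTB7A, which encodes a zinc finger repressor, had 2979 and 2974 bp in DMSO against 736 and 794 bp in I-BET151 (log2 difference −1.96). In both, the I-BET151 libraries lay far below the DMSO libraries and close to each other. PLEC, which encodes the cytoskeletal linker plectin, had 3267 and 3303 bp in DMSO against 897 and 1770 bp in I-BET151. AHNAK, which encodes a large scaffold protein, had 2622 and 2581 bp in DMSO against 592 and 912 bp in I-BET151. In these 2 the I-BET151 libraries lay further apart than the DMSO libraries. An intergenic domain 12654 bp from C1orf159 had 2231 and 2168 bp in DMSO against 415 and 316 bp in I-BET151 (log2 difference −2.60). MNT, which encodes a MAX-binding repressor, had 2537 and 2328 bp in DMSO against 1134 and 647 bp in I-BET151. CPEB2, which encodes an RNA-binding protein, had 2975 and 3256 bp in DMSO against 1639 and 1653 bp in I-BET151. MMP15, which encodes a membrane-type metalloproteinase, had 2074 and 1993 bp in DMSO against 694 and 541 bp in I-BET151. In all 8 losses both I-BET151 libraries were below both DMSO libraries and under the width limit. CYBA, SPTAN1, CEBPD and PACSIN3 were also among the 8 that limma ranked first among the narrower domains, with log2 differences of −1.05, −1.29, −0.86 and −0.82. The summit of the SPTAN1 domain lay in DYNC2I2, 3123 bp from the start of SPTAN1.

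**Figure D3:**
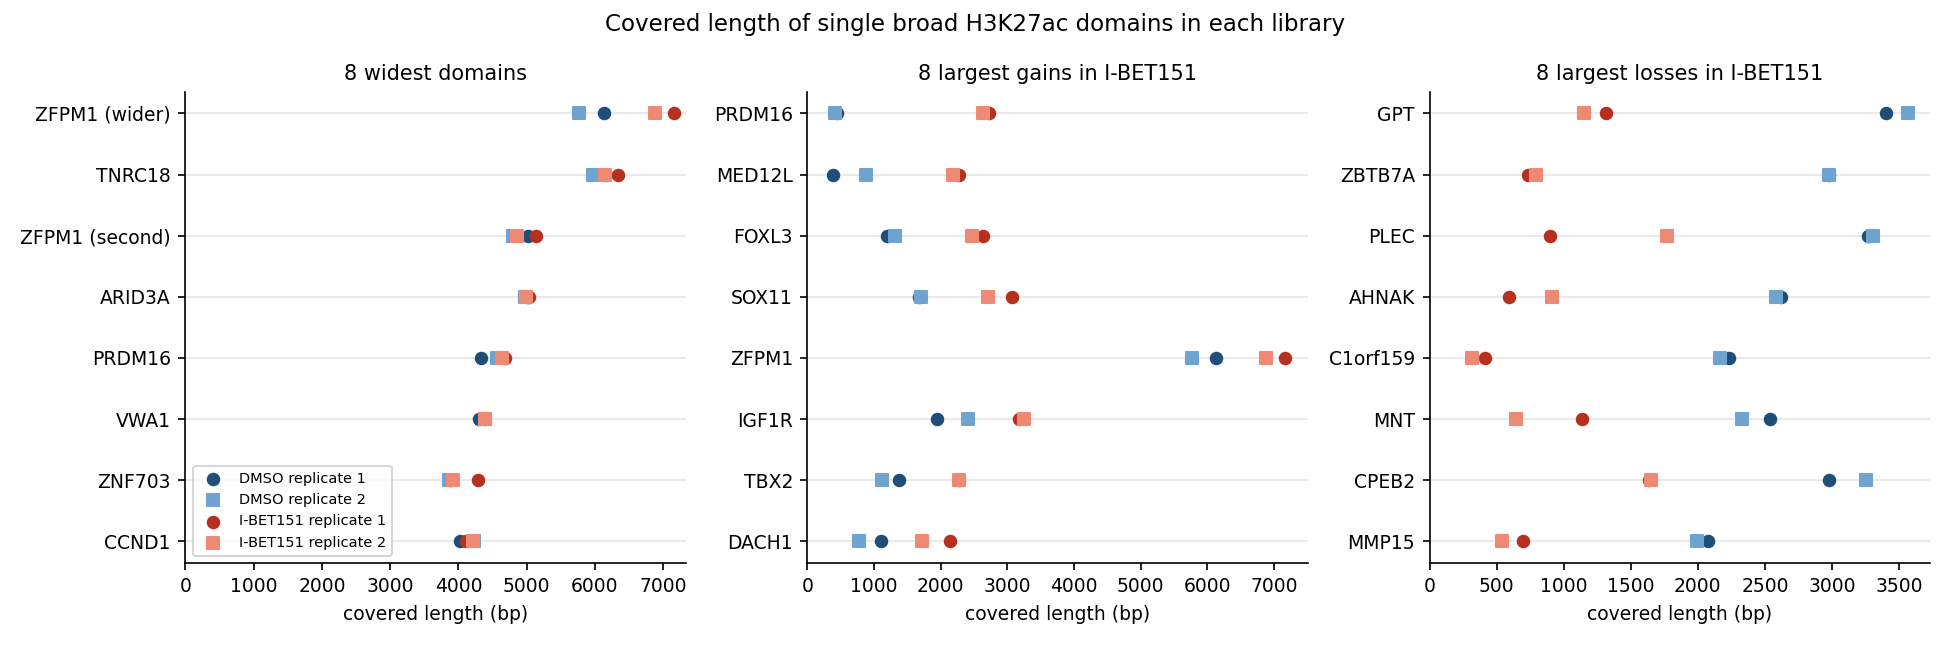
Covered length in bp of single domains in each library, with 1 row per domain and 1 point per library (blue, DMSO; red, I-BET151; circles, replicate 1; squares, replicate 2). In the left panel the 8 widest domains differ little between libraries apart from the widest and ZNF703, whereas in the middle and right panels the red and blue points are apart in all 16 rows.

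Genes of the pancreatic progenitor program were prominent among the domains. A gene was counted in a list when its start lay inside a domain or within 3 kb of the domain's summit. Of 29 progenitor genes with a shared region by this measure, 10 had a broad domain (34.5%), compared with 333 of 8637 protein-coding genes (3.9%). They included PDX1, NKX6-1, ONECUT1, FOXA2, GATA6, MNX1, TCF7L2, SOX4 and SOX11, which encode transcription factors, most of them known from the early pancreas. In 9 of them covered length was higher in both I-BET151 libraries than in both DMSO libraries, in SOX4 the groups overlapped, and none was lower, while 28.3% of all broad domains and 16.0% of all shared regions were higher. PDX1, required for formation of the pancreas, had 2476 and 2517 bp in DMSO against 2903 and 2528 bp in I-BET151. NKX6-1, a factor of the β-cell lineage, had 2668 and 2672 bp in DMSO against 2850 and 2749 bp in I-BET151. GATA6, needed for early pancreas growth, had 3728 and 3714 bp in DMSO against 3772 and 3745 bp in I-BET151. The differences were small next to the domains, between 20 and 278.5 bp for the genes other than SOX11. SOX11, whose domain met the width limit only through I-BET151, was the only one that limma called. At MNX1 too only an I-BET151 library reached the limit, with 1969 and 1970 bp in DMSO against 2008 and 1980 bp in I-BET151. The choice by width thus enters the count of 9 at both genes. At PDX1 and TCF7L2 I-BET151 replicate 2 lay barely above the higher DMSO library, and most of the difference came from I-BET151 replicate 1. Domains further from the start, not in these counts, lay nearest to GATA4 (4444 bp away, 2167 and 2130 bp in DMSO against 2269 and 2251 bp in I-BET151), to ONECUT2 (4366 bp away, 2217 and 2169 bp against 2612 and 1908 bp) and, as a second domain, to SOX4 (6013 bp away, 1805 and 1820 bp against 2027 and 1837 bp). GATA4 and SOX4 were apart upwards there and ONECUT2 overlapped. PDX1 and NKX6-1 are loci that the study itself singled out, and the list as a whole was drawn up with earlier results of these data known, so its direction is not independent evidence.

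The height of the marks separated the groups more clearly at these genes. Summit height is given in RPM at the strongest summit of a domain, a measure that the choice of domains did not use directly. All 10 progenitor domains were higher in both I-BET151 libraries than in both DMSO libraries. In 179 of the 361 domains (49.6%) the heights were apart in this direction, against 29.9% of all shared regions with a resolved height. ONECUT1, which encodes the factor HNF6, had 23.7 and 25.3 RPM in DMSO against 41.9 and 44.8 in I-BET151, although its covered length rose only from 2587 and 2525 bp to 2651 and 2658 bp. NKX6-1 had 37.2 and 35.3 RPM in DMSO against 54.4 and 55.2 in I-BET151. FOXA2, which encodes a pioneer factor of endoderm, had 37.7 and 33.6 in DMSO against 51.8 and 53.3 in I-BET151. PDX1 had 45.9 and 40.0 in DMSO against 55.3 and 58.4 in I-BET151. In these 4 genes the step between the groups exceeded the gap within each group. At TCF7L2, a Wnt pathway factor whose domain was among the 4 highest of all, heights were 55.8 and 46.8 in DMSO against 61.4 and 59.7 in I-BET151, and all but that of DMSO replicate 1 were close to the limit of their library. The limma fit on heights called 6 of the 10 higher (PDX1, NKX6-1, ONECUT1, FOXA2, MNX1 and SOX11) and none lower. It called 15.2% of all domains and 10.1% of all shared regions with a resolved height higher. At MNX1 and SOX11 no DMSO library covered 2000 bp, so the choice by width may enter their heights. Their calls are given as a description. In all 10 both I-BET151 libraries also exceeded DMSO replicate 1 alone, as they did in 180 of the 361 domains. Fold enrichment as deposited, which includes the local input level, was above in 7 of the 10, below at GATA6 and overlapping in the others. This fold was above in 38.5% of all domains and 25.4% of all shared regions.

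**Figure D4:**
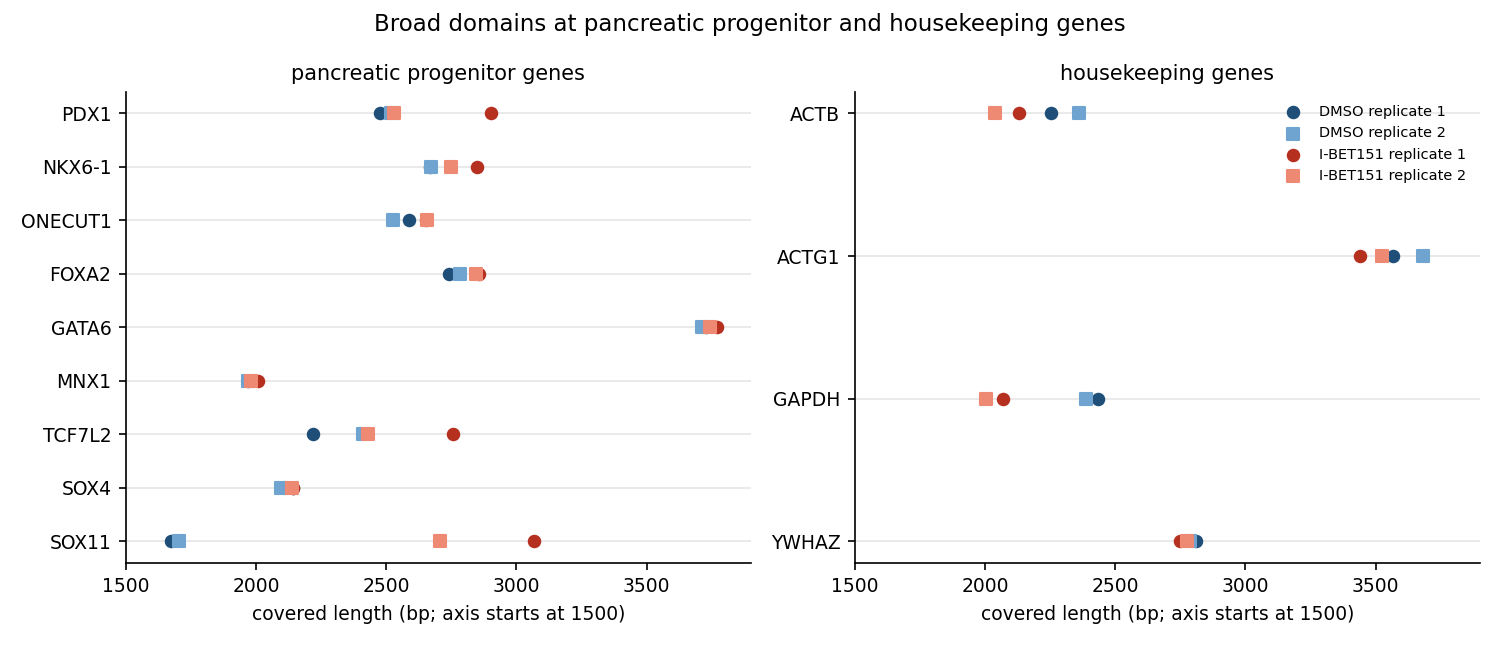
Covered length in bp of the broad domains at 9 of the pancreatic progenitor genes (left) and 4 housekeeping genes (right), with 1 point per library (blue, DMSO; red, I-BET151; circles, replicate 1; squares, replicate 2) and an axis that starts at 1500 bp. SOX11 shows the only wide separation on the left, and all 4 housekeeping genes have both I-BET151 libraries to the left of both DMSO libraries.

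Housekeeping genes behaved differently in covered length. Of 27 housekeeping genes with a shared region 4 had a broad domain (14.8%), and in all 4 both I-BET151 libraries were below both DMSO libraries, against 33.3% of all shared regions. GAPDH, a glycolytic enzyme gene, covered 2433 and 2387 bp in DMSO against 2068 and 2004 bp in I-BET151 (limma adjusted p = 0.0655). ACTB, which encodes β-actin, covered 2251 and 2361 bp in DMSO against 2128 and 2037 bp in I-BET151 at its promoter. ACTG1, which encodes γ-actin, covered 3565 and 3682 bp in DMSO against 3441 and 3523 bp in I-BET151. YWHAZ, which encodes a 14-3-3 protein, covered 2810 and 2788 bp in DMSO against 2747 and 2776 bp in I-BET151. None passed the limma threshold, and the YWHAZ difference of 37.5 bp was about as small as the gaps within its groups. Their heights did not follow: they were apart at GAPDH alone, which was higher in I-BET151 with 42.3 and 39.7 RPM against 38.3 and 33.6. The second ACTB domain (chr7:5554900-5556955) lay 6425 bp from another annotated start of ACTB, not the one at the promoter domain (chr7:5529392-5531767). It was among the domains called narrower, with 2036 and 1995 bp in DMSO against 1587 and 1613 bp in I-BET151. Both I-BET151 libraries were under the width limit there, so the choice by width enters this call and it is given as a description.

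Of 15 genes of the BET and elongation machinery with a shared region 2 had a broad domain (13.3%, against 3.9% of all protein-coding genes), namely BRD3, a BET gene itself, and MLLT3, a subunit gene of the super elongation complex. BRD3 covered 1792 and 1993 bp in DMSO against 1785 and 1959 bp in I-BET151, and MLLT3 covered 2133 and 1505 bp in DMSO against 2216 and 2017 bp in I-BET151. The groups overlapped at both genes. Heights at MLLT3 were 33.9 and 30.1 RPM in DMSO against 45.1 and 43.4 in I-BET151, and those at BRD3 were 32.9 and 31.3 in DMSO against 39.6 and 38.7 in I-BET151. The limma fit on heights called MLLT3 higher, as it did 15.2% of all domains and 10.1% of all shared regions.

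Signalling genes were mixed. In the Notch list 3 of 18 genes had a domain at their start: the ligand gene JAG1 (2108 and 1886 bp in DMSO, 2198 and 2145 bp in I-BET151), the coactivator gene MAML3 (2492 and 2506 bp, then 2605 and 2558 bp) and the target gene HES4 (3128 and 3170 bp, then 3081 and 3113 bp). JAG1 and MAML3 were above and HES4 was below, and limma called none of these 3. Further from a start, the domain 4395 bp from NOTCH1 covered 1560 and 1516 bp in DMSO against 1951 and 2024 bp in I-BET151 and was called wider, having met the width limit only through I-BET151, and the one 14266 bp from NRARP, a feedback inhibitor gene, covered 2308 and 2867 bp against 2435 and 2580 bp with overlapping groups. Among 25 growth factor and MAPK feedback genes 8 had a domain at their start (32.0%, against 3.9% of all protein-coding genes), of which 4 were above in I-BET151 and 1 was below, with no limma call. Over all domains 28.3% were above and 30.7% below, and over all shared regions 16.0% and 33.3%. The receptor gene FGFR3 had 2689 and 2675 bp in DMSO against 2678 and 2617 bp in I-BET151, the feedback inhibitor gene SPRY4 had 2650 and 2458 bp and then 2667 and 2460 bp, and PHLDA1 had 2073 and 2266 bp and then 2384 and 2338 bp. Of these 3 PHLDA1 was apart. A pair of further domains lay 14656 and 26191 bp from FGFR3, the first with overlapping groups and the second below (2242 and 2249 bp in DMSO against 2082 and 2141 bp in I-BET151). Among 19 immediate early and AP-1 genes 5 had a domain, with 1 above, 1 below and no call. The one above was MYC, with 1878 and 1618 bp in DMSO against 2221 and 2181 bp in I-BET151. Its height was 19.0 and 16.9 RPM in DMSO against 37.4 and 41.6 in I-BET151. Only the I-BET151 libraries reached the width limit at MYC, so the choice by width may enter both differences. They are given as a description. ZFP36L2 covered 3687 to 3839 bp and FOSL2 2054 to 2126 bp with overlapping groups, and IER5L covered 1850 and 2082 bp in DMSO against 1838 and 1726 bp in I-BET151.

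Further lists contributed few domains. Both mesenchymal genes with a domain, VIM (1839 and 1965 bp in DMSO, 2139 and 2253 bp in I-BET151) and ZEB1 (1030 and 1347 bp, then 1858 and 1876 bp), were above in covered length, and both were called higher by the limma fit on heights. At VIM only the I-BET151 libraries covered 2000 bp, and at ZEB1 no single library did. The choice by width may thus enter both genes, and their directions and calls are given as a description. Over all domains 28.3% were above in covered length and 15.2% were called higher, and over all shared regions 16.0% and 10.1%. Of the 4 mesenchymal markers above, PDGFRA, COL1A1 and COL3A1 were at 0 in every library and PDGFRB had a peak in every library (947 and 1129 bp in DMSO against 1068 and 589 bp in I-BET151), and the part of such cells in these values was not tested. Of 20 chromatin coactivator genes 5 had a domain, with ARID1A at 2941 to 2984 bp and ARID1B at 3023 to 3062 bp in all libraries, KMT2B at 2787 and 2834 bp in DMSO against 2726 and 2736 bp in I-BET151, and KMT2A at 2048 and 1867 bp in DMSO against 2217 and 2131 bp in I-BET151. Among forkhead genes FOXP1 covered 2545 bp in both DMSO libraries and 2843 bp in both I-BET151 libraries (limma adjusted p = 0.0886), and FOXO1 and FOXK1 overlapped. The pluripotency factor gene SALL4 covered 2090 and 2027 bp in DMSO against 2138 and 2146 bp in I-BET151. Several gene classes had no domain at a start, although with 3.9% of all protein-coding genes having one most of these lists are too short to read anything from a 0. None of 58 ribosomal protein genes, 13 histone genes, 10 heat shock genes, 10 p53 and CDK inhibitor genes or 4 HOX genes with a shared region had a broad domain, and 6 of 245 zinc finger genes did (2.4%). No endocrine or acinar gene had one, with 1 and 2 genes of those lists in a shared region at all.

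Summit height set broad domains further above other regions in I-BET151 than in DMSO. Median height over the domains was 42.1 and 37.6 RPM in DMSO against 42.8 and 44.3 in I-BET151 (exact permutation p = 0.33). In the other shared regions it was 28.8 and 26.7 in DMSO against 25.8 and 27.7 in I-BET151, and the groups overlapped. The ratio of the former to the latter was 1.46 and 1.41 in DMSO against 1.66 and 1.60 in I-BET151 (difference 0.193, exact permutation p = 0.33). Fold enrichment as deposited gave ratios of 1.17 and 1.16 in DMSO against 1.29 and 1.32 in I-BET151 (exact permutation p = 0.33). The difference was thus larger than the gap between replicates in either measure. Domains that were wide in only 1 group are among these members, and heights often went with covered length. The choice by width may therefore enter these ratios, and its part was not tested. Without DMSO replicate 2, the library with the lowest limit, the ratio of heights differed by 0.165. Median input level at the domains was 17.7 and 13.1 reads in DMSO against 14 and 12.9 in I-BET151, so DMSO replicate 1 had the highest background, and its part in the fold values was not tested.

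Per domain, heights were apart upwards in 179 domains and downwards in 58 (16.1%, against 31.1% of all shared regions). Fold enrichment was apart upwards in 139 (38.5%, against 25.4%) and downwards in 44 (12.2%, against 16.3%). Of the 102 domains with more covered length in I-BET151, 92 were also higher and none lower, and of the 111 with less, 49 were lower and 12 were higher. The limma fit called 55 domains higher (15.2%, against 10.1% of all regions) and 38 lower (10.5%, against 14.6%). With heights centred on each library's median it called 172 higher and 46 lower, and with the deposited fold it called 0 (38 domains at an unadjusted p under 0.05). Without DMSO replicate 1 it called 199 higher and without DMSO replicate 2 it called 90, whereas 26 and 21 were called without I-BET151 replicate 1 or 2. The highest domains were at STXBP5, HMGA2, MAP7D1 and TCF7L2. HMGA2, which encodes an architectural chromatin protein of embryonic cells, reached 55.9 and 46.6 RPM in DMSO against 63.6 and 61.0 in I-BET151. The lowest were an intronic domain of SEPTIN9 (12.0 to 14.4 RPM), a domain in EXD3 nearest to NRARP (11.2 to 14.6), the gained PRDM16 intron (11.9 and 10.1 in DMSO, 17.0 in both I-BET151 libraries) and the domain near FOXL3 (11.7 and 10.4 in DMSO, 19.7 and 20.2 in I-BET151). Wide domains were therefore not always high ones.

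Most domains sat on promoters. The strongest summit lay within 3 kb of a protein-coding start in 307 of 361 domains (85.0%, Wilson 95% interval 81.0 to 88.4%), compared with 86.9% (86.2 to 87.6%) of the other shared regions. A start lay within 1 kb of the summit less often than in the other regions, in 76.2% (71.5 to 80.3%) against 84.2% (83.5 to 84.9%). Inside the domain 257 had the start of 1 protein-coding gene, 29 had those of 2 genes and 75 had none. Pairs of starts were found, for example, at HES4 and ISG15, at CAPZB and MICOS10, at MAP7D1 and TRAPPC3 and at SEPTIN10 and SOWAHC. Starts of 2 or more genes within 3 kb of the summit were less frequent than in other shared regions, 9.42% (6.82 to 12.9%) against 16.2% (15.5 to 16.9%). Starts of long noncoding RNAs were more frequent, 39.3% (34.4 to 44.5%) against 29.3% (28.5 to 30.3%). These intervals cover counting error only, and regions are not replicates.

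Around the start, domains leaned into the gene. Of the covered length at promoters 57.6 and 57.5% lay downstream of the start in DMSO against 57.3 and 57.6% in I-BET151. Coverage was highest in the bin centred 250 bp downstream, where 91.5 and 91.9% of the 307 domains were covered in DMSO against 91.2 and 92.2% in I-BET151. At 1050 bp downstream it was 65.5 and 63.8% in DMSO against 61.2 and 60.6% in I-BET151, and at 1050 bp upstream it was 40.7 and 41.0% in DMSO against 38.4 and 37.1% in I-BET151. At 2050 bp the groups overlapped on both sides, with 5.86 and 7.17% against 7.49 and 6.84% upstream and 15.96 and 15.96% against 16.29 and 14.66% downstream. In the sum over domains coverage was lower in I-BET151 by 9.96 kb upstream and by 15.1 kb downstream (exact permutation p = 0.33 each). Among the 94 promoter domains with less covered length, coverage 1050 bp downstream was 69.1 and 67.0% in DMSO against 47.9 and 50.0% in I-BET151. Near the start they were less covered too, with 91.5 and 94.7% in DMSO against 78.7% in both I-BET151 libraries 50 bp upstream. Among the 88 with more, the change was largest at the start itself, where 72.7 and 73.9% were covered 50 bp upstream in DMSO against 85.2 and 84.1% in I-BET151. These classes were formed from the same covered lengths, so their profiles only show where the length lay.

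**Figure D5:**
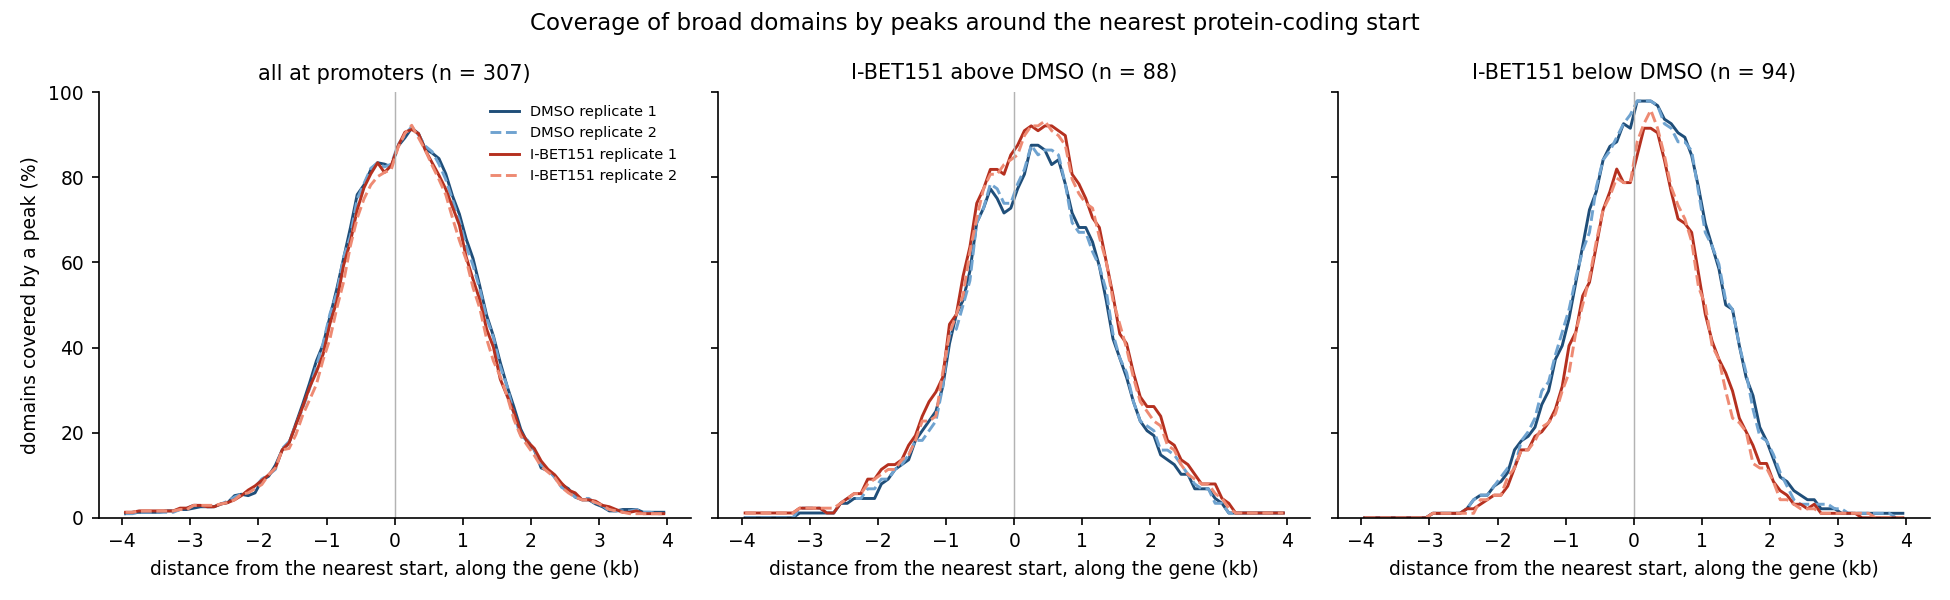
Percentage of promoter domains covered by a peak at each distance in kb from the nearest protein-coding start, along the direction of the gene, for all 307 (left), the 88 with more (middle) and the 94 with less covered length in I-BET151 (right). Lines are single libraries (blue, DMSO; red, I-BET151; dashed, replicate 2), and the curves share their centre on the left while the red curves are narrower on the right and also lower at the start.

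In 50 domains (13.9%, 10.7 to 17.8%) no protein-coding start lay within 3 kb of the region, compared with 12.7% (12.0 to 13.4%) of other shared regions. The strongest summit of 27 of them lay in the gene whose start was nearest, of 2 in another protein-coding gene and of 21 in none. They covered 121 and 118 kb in DMSO against 121 and 115 kb in I-BET151 (exact permutation p = 0.67), while domains at starts covered 730 and 724 kb and then 711 and 690 kb. Distal domains were CpG-poor, with a median observed to expected ratio of 0.431 against 0.865 in promoter domains. Summits of broad domains were often close to chromosome ends: 27.1% (22.8 to 32.0%) lay within 5 Mb of one, compared with 15.3% (14.6 to 16.1%) of other shared regions, and 52.0% (38.5 to 65.2%) of the distal ones did. Among domains with less covered length in I-BET151 39.6% (31.0 to 48.9%) lay there, compared with 22.5% (15.5 to 31.6%) of those with more and 20.9% (15.2 to 28.2%) of those with overlapping groups. Domains also clustered, since 63 of them had another within 50 kb and 20 genes were nearest to more than 1. BCOR, which encodes a corepressor of BCL6, was nearest to 4 domains: its promoter domain had 2340 and 2335 bp in DMSO against 2403 and 2353 bp in I-BET151. A BCOR domain 7206 bp from the start fell from 2546 and 2507 bp to 2106 and 2093 bp (limma adjusted p = 0.0428).

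The domains were built of GC-rich sequence. Median GC content in 500 bp around the summit was 72.2%, compared with 68.8% in other shared regions, and the median ratio of observed to expected CpG was 0.851 against 0.814. Over 2000 bp the contrast was larger, with 66.65 against 58.35% GC and ratios of 0.798 against 0.709. Motifs were searched on both strands within 500 bp of sequence centred on the summit. The SP/KLF motif GGGCGG was found in 89.2% (85.6 to 92.0%) of domains, compared with 83.5% of all 10317 shared regions. The CCAAT box bound by NFY was found in 17.2% (13.6 to 21.4%) against 25.4%, and the ETS motif CCGGAAG in 8.59% (6.12 to 11.9%) against 16.9%. The AP-1 motif TGANTCA was found in 6.09% (4.06 to 9.05%) against 4.96%. In domains with more covered length in I-BET151 it was found in 3 of 102, and in those with less in 9 of 111, with overlapping intervals (1.01 to 8.29% and 4.32 to 14.7%). At 2000 bp it was found in 15.7% (9.89 to 24.0%) and 27.9% (20.4 to 36.9%) of the same domains, against 29.1% of all shared regions. The FOXA motif TGTTTAC was found in 1.94% of domains against 2.21%, the GATA motif AGATAAG in 0.831% against 1.45%, and the NRF1 motif CGCATGCGC in 0.831% against 1.91%. The CRE motif TGACGTCA was found in 0.831% against 1.45% and the YY1 motif AAGATGGCG in 2.77% against 4.06%. A match describes the letters of these windows and shows no binding.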

How the data were processed

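H3K27ac was profiled by ChIP-seq in 4 libraries, 2 per group as the labels give them, with 4 input libraries, which have no peak list of their own here. The authors aligned reads to hg38 with Bowtie2 2.2.5, removed duplicates and called narrow peaks with MACS2 2.1.2 in each library separately. The deposited lists give peak bounds in bp, a score, a fold enrichment over the local input (a ratio) and the −log10 of p and q. The score was not used as a measurement. Peaks sharing 1 bp were merged on chromosomes 1 to 22, X and Y, and covered length is the bp of a region inside a library's peaks. ChIP and input reads at each summit were worked out from the deposited fold and −log10 p values, as the whole reads that give both within a tolerance of 0.02 (98.5 to 99% of peaks resolved), and heights are in RPM, reads per M ChIP reads. Library depth assumes the default genome size of MACS2 and the shortest peak as fragment length, so RPM values and height limits rest on both. Nothing was normalised between libraries beyond depth. Regions were tested with limma 3.58.1 (trend, on log2 values, Benjamini-Hochberg adjustment, threshold 0.05, R 4.3.3) over 10317 shared regions, or 10039 for height, after the code was tested on simulated data. Single values per library were tested with the exact two-sided permutation test. The narrow variance prior of the limma fit on heights gives very small p values, so only its counts are reported. Genes are GENCODE release 44, and sequence features were read from hg38. A domain was assigned to the protein-coding start nearest to its strongest summit.

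Named domains are the widest, those with the largest gain or loss, those with the smallest limma p in each direction, the highest and lowest, the widest far from a start, those with most starts, and members of the progenitor and BET lists. Other genes are examples from 27 gene lists, and some items are not reported here. The members and lists were chosen with earlier results of these data known. The alternatives were other q, peak number, merging, width, chromosome, centring, trend and window settings, each library left out, and same-numbered libraries as pairs. They were applied to heights and fold ratios and to the progenitor and housekeeping counts after seeing the data.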

Additional observations from a re-analysis of the deposited data

How the results depend on the processing

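The domains numbered 635 when peaks within 500 bp were merged, 1116 at a width of at least 1500 bp and 60 at 3000 bp. In the same order, 164, 283 and 18 had more covered length in I-BET151 and 212, 344 and 19 less, limma called 19, 23 and 3 wider and 37, 49 and 3 narrower, and 92, 159 and 8 higher and 80, 113 and 7 lower. A change of width left the shared regions as they were, with 16.0% above and 33.3% below in covered length. No such share is given for 500 bp merging or with 1 library left out, so those counts only describe the domains. At 3000 bp, 3 progenitor domains were above and 1 housekeeping domain was below. The difference in peaks per domain changed sign, to −0.00139 with peaks of −log10 q of at least 5 and −0.0331 with 500 bp merging, and ranged from −0.0360 to 0.0720 with 1 library left out. Leaving out 1 library gave 110 to 172 domains above and 129 to 170 below, 0 to 3 called wider, 0 to 21 narrower, 21 to 199 higher and 21 to 43 lower. Without trend limma called 1 wider and 5 narrower. Centring each library on its median gave 10 narrower and 172 higher, and the deposited fold gave 0 higher and 0 lower. Over 2000 bp the CpG ratio exceeded that of other regions by 0.0896, against 0.0376 over 500 bp. The cause of these changes was not tested. Replicate numbers name libraries and pair nothing in the labels: replicate differences correlated at 0.1613 across domains and 0.0812 across all shared regions in covered length, and at 0.2967 and 0.0708 in height. With the number as a replicate block limma called 0 wider and 0 narrower (114 domains at an unadjusted p under 0.05), 21 higher and 24 lower. The summed difference in covered length was negative under every alternative run, from −64.1 to −5.27 kb. Of 567 recomputed differences of 52 named domains, 545 moved by less than 1 SD and none of those called apart changed sign. Depth caps heights, since a median summit held 61.6 to 74.9% of the reads its library could place there.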

Other observations

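An annotated miRNA lay inside 5 domains, namely MIR191, MIR4466, MIR4492, MIR4740 and MIR5587, and the start of a long noncoding RNA lay inside 115. Among further gene lists, SMAD3 and SMAD6, which encode a mediator and an inhibitor of TGFβ and BMP signalling, went apart in different directions. SMAD3 covered 2030 and 2016 bp in DMSO against 2045 and 2057 bp in I-BET151, and SMAD6 covered 3120 and 3099 bp and then 3082 and 2940 bp. FZD5, which encodes a Wnt receptor, covered 2495 and 2510 bp in DMSO against 3014 and 2866 bp in I-BET151 (limma adjusted p = 0.0870). CEBPB, which encodes a bZIP factor, covered 1982 and 2087 bp in DMSO against 1722 and 1740 bp in I-BET151. Neither FZD5 nor CEBPB passed the limma threshold. At CEBPB only DMSO replicate 2 reached the width limit, so the choice by width enters its difference, which is given as a description.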
